A study of Homo sapiens with 6 samples.

Results

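Wnt3 and 8 further genes of the Wnt/beta-catenin pathway were followed in MKN45 cells that received a Golph3 shRNA. The genes were taken as the rows whose Ensembl mouse identifier (ID) is on a list of 9, which is 9 of the 34866 IDs in the table of estimated counts. They are Wnt3 (ENSMUSG00000000125.5), Lrp6 (ENSMUSG00000030201.15), Lgr5 (ENSMUSG00000020140.15), Apc (ENSMUSG00000005871.14), Axin2 (ENSMUSG00000000142.15), Ctnnb1 (ENSMUSG00000006932.17), Tcf7l2 (ENSMUSG00000024985.18), Lef1 (ENSMUSG00000027985.14) and Cd44 (ENSMUSG00000005087.17). The list was selected on earlier results of the same contrast, Golph3 shRNA against control shRNA in these libraries, so the folds, calls and p-values below describe these genes and are not independent evidence about the pathway.

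MKN45 is a line from a human gastric adenocarcinoma, which the design text describes as lacking MUC6, and the cells were grown in RPMI1640 with serum and antibiotics. The 3 control samples received an adenovirus with a control shRNA, and the 3 Golph3 shRNA samples received an adenovirus with an shRNA against Golph3, a Golgi protein. All 6 therefore had an adenovirus and a hairpin, and no sample without virus was analysed here. The sources used here give neither the viral dose, the time after infection, the number of different hairpins nor whether samples were separate cultures. A p-value therefore reflects only how these 6 samples scatter, and that scatter may be technical. The comparison asks how expression differs between the Golph3 shRNA and the control shRNA.

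Wnt ligands bind Frizzled receptors together with the co-receptors LRP5 and LRP6. Without a ligand, a destruction complex built on APC and AXIN proteins marks beta-catenin for degradation. With a ligand, beta-catenin accumulates, enters the nucleus and acts with TCF and LEF factors on target genes, among them AXIN2, LGR5 and CD44. In the stomach and intestine the pathway maintains epithelial stem cells, many of which carry LGR5.

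The control libraries held 6287037 to 7355140 estimated counts and the Golph3 shRNA libraries 4977645 to 5676169, so every Golph3 shRNA library was the smaller. Values are given as CPM, a gene's count per 1e6 counts of its library, which scales for this difference in depth. The library totals were first adjusted by trimmed mean (TMM) normalization factors, which ran from 0.98 to 1.02. Although the labels give human cells, the IDs are of mouse genes and the submitters' processing notes name the mouse build mm10. Whether the reads are human ones counted on mouse genes, or come from mouse cells, cannot be told from the table. A CPM is therefore compared between libraries for the same gene, and not between genes as a level of expression. Where a gene is set against Ctnnb1 below, only the change of that ratio between libraries is read. The gene name tables used here are for human genes and matched 0 of the IDs. The symbols come with the list of IDs and were not checked against a mouse annotation, and the level of Golph3, other pathway genes and cell type markers were not analysed here.

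Promoters of 6 of the 9 genes were found by symbol in a RefSeq table of the human genome (build GRCh38.p14), since the labels give human cells. LGR5, AXIN2 and LRP6 had no entry. The windows of 4 genes that changed are shown: WNT3, APC and TCF7L2, which were lower with Golph3 shRNA, and LEF1, which was higher. The window of CD44, which was also lower, is not shown. Each sequence is the 250 bases before a RefSeq transcription start, read 5′ to 3′ along the gene. Capitals mark a match to the TCF/LEF core, searched on both strands as CTTTGNN with A or T at each N. For APC the upstream one of 2 starts is shown. For TCF7L2 an internal start is shown, the only TCF7L2 window with a match.
WNT3, chr17:46818693-46818942 (minus strand): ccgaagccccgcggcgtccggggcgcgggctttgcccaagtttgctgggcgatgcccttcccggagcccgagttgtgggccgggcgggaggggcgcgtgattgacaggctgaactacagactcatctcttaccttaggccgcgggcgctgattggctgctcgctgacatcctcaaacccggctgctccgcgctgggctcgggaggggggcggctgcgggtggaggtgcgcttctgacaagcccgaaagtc
APC, chr5:112707248-112707497 (plus strand): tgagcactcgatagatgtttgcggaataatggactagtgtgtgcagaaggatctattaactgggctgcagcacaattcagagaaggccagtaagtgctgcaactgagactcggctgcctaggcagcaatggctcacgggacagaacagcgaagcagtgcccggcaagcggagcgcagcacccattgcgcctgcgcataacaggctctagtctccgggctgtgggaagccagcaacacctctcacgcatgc
TCF7L2, chr10:113126383-113126632 (plus strand): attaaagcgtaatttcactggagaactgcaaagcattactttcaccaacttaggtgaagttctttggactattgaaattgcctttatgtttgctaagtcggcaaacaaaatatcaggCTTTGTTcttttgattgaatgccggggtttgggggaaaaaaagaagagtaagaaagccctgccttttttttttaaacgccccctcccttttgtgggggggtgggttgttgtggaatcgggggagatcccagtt
LEF1, chr4:108166302-108166551 (minus strand): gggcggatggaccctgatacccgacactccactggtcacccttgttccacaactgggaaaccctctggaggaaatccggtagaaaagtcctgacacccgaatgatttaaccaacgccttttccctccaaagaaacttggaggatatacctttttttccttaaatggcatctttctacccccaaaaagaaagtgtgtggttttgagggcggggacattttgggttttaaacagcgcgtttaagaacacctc
The TCF7L2 window held 1 match, which begins 133 bases before the start on the plus strand. None was found at the other TCF7L2 starts in the table or in the windows of WNT3, APC, CTNNB1, LEF1 or CD44. Among all 35114 human promoter windows of this length, 12.0% held at least 1 match, so no inference is drawn from the 1 match found here. A match describes these letters alone, and its absence says nothing about binding elsewhere.

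With Golph3 shRNA, 5 of the 9 genes fell (Apc, Lgr5, Wnt3, Cd44 and Tcf7l2), Lef1 was called higher, and Axin2, Ctnnb1 and Lrp6 did not pass the test. The Lef1 call is the less firm, since it rests on 8.27 to 34.6 counts a library and was kept in 11 of 14 alternative fits. The ligand and the receptor Lgr5 were lower, whereas the 95% intervals of the co-receptor Lrp6 and of Ctnnb1, the beta-catenin gene, reached no further than 1.21-fold. Calls are from edgeR's quasi-likelihood test, Benjamini-Hochberg adjusted over all tested IDs, at an adjusted p below 0.05. All 9 genes were among the 11400 IDs tested. Of those IDs, 33.9% were called, 17.8% as lower and 16.1% as higher. The members' median log2 fold change was -0.53, and that of all tested IDs was 0.0019. The Golph3 shRNA values lay wholly below the control values for 6 of the 9 genes, wholly above them for 1 and among them for 2. Such separate groups were found in 46.3% of all tested IDs, with Golph3 shRNA the lower in 24.2% and the higher in 22.1%. Since the contrast was known when the genes were picked, no inference is drawn from their counts against these shares. In bulk RNA, fewer cells that express a gene and less of its RNA per cell cannot be told apart.

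**Figure D1:**
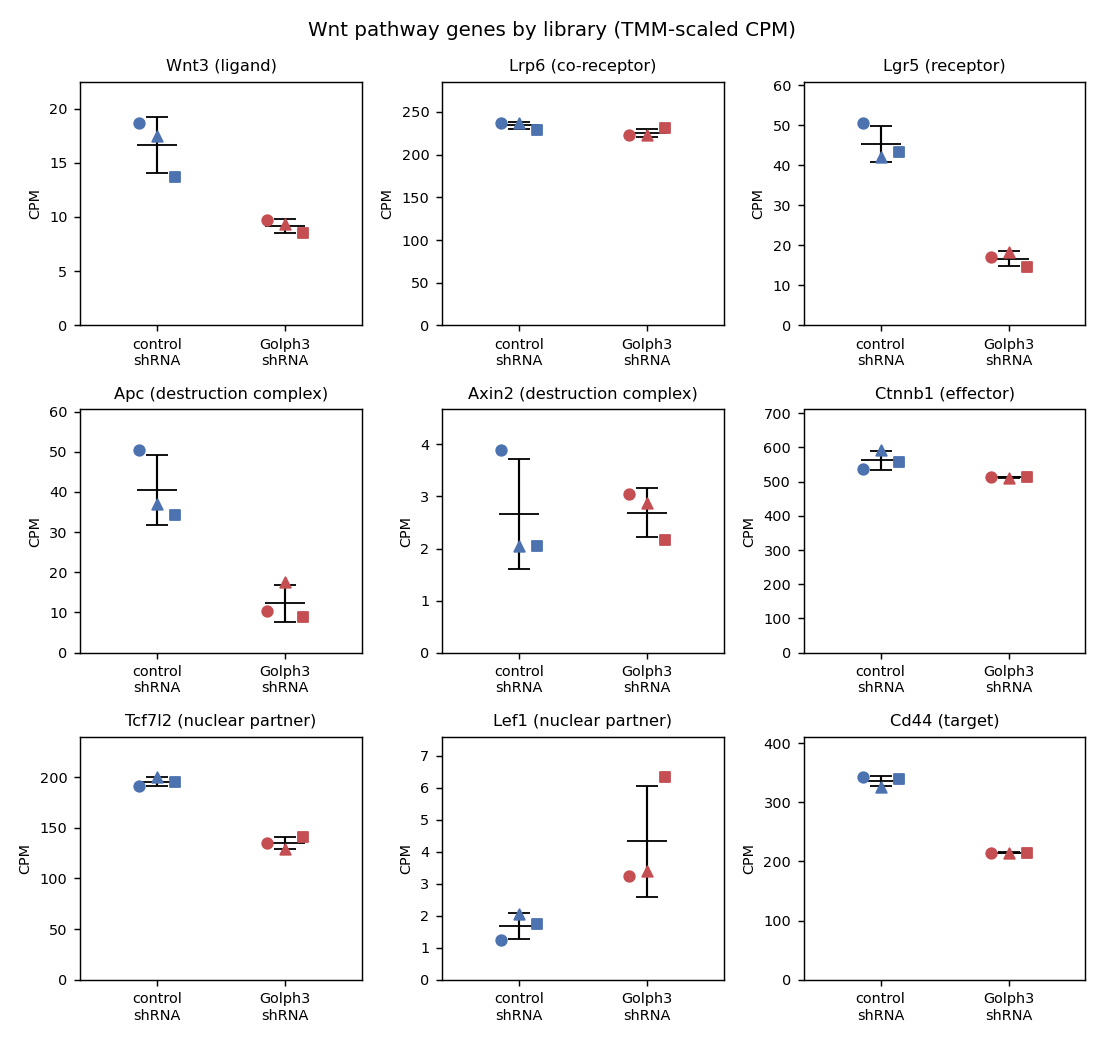
CPM (y axis, from 0, with its own range in each panel) of the 9 genes in the 3 control shRNA and 3 Golph3 shRNA libraries. Circles, triangles and squares are replicates 1, 2 and 3, and bars give the mean ± SD. Wnt3, Lgr5, Apc, Tcf7l2, Cd44 and, by a small step, Ctnnb1 separate downward with Golph3 shRNA and Lef1 upward, while Lrp6 and Axin2 overlap.

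Wnt3, the ligand, had 18.7, 17.5 and 13.7 CPM in control replicates 1, 2 and 3 and 9.73, 9.31 and 8.49 CPM with Golph3 shRNA. Every Golph3 shRNA value lay below every control value. The estimates behind them were whole numbers in all 6 libraries, from 87 to 128 counts in the controls and from 47 to 52 with Golph3 shRNA. The mean fell from 16.6 ± 2.59 to 9.18 ± 0.63 CPM (SD, n = 3 libraries each). In the edgeR fit this was a log2 fold change of -0.86 (SE 0.20, 95% interval -1.27 to -0.44, adjusted p = 0.0031), or 1.81-fold lower.

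Lrp6, the co-receptor that joins Frizzled in binding the ligand, had 237, 237 and 229 CPM in the controls and 223, 223 and 231 CPM with Golph3 shRNA. The groups overlapped through Golph3 shRNA replicate 3. Its log2 fold change was -0.05 (95% interval -0.19 to 0.08, edgeR adjusted p = 0.55). The interval allows between 87.4% and 106% of the control level, and does not reach the fold change of Wnt3.

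Lgr5, a receptor for R-spondins that raises the response to Wnt ligands and marks stem cells of the gut epithelium, had 50.6, 42.1 and 43.3 CPM in the controls. With Golph3 shRNA the values were 17.0, 18.3 and 14.6 CPM. The highest Golph3 shRNA value was far below the lowest control value. The mean fell from 45.4 ± 4.58 to 16.6 ± 1.84 CPM (SD, n = 3 libraries each), which left 36.7% of the control level. The log2 fold change was -1.44 (SE 0.14, 95% interval -1.73 to -1.16, edgeR adjusted p = 1.37e-06), or 2.72-fold lower.

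Of the genes for scaffolds of the destruction complex, Apc fell and Axin2 did not pass the test, and the difference between their fold changes was not itself tested. Apc, whose protein holds beta-catenin in the complex and is a tumour suppressor of the gut, had 50.4, 37.0 and 34.2 CPM in the controls. It had 10.3, 17.5 and 8.85 CPM with Golph3 shRNA. The groups were separate, and the Golph3 shRNA values were scattered, with replicate 2 well above replicates 1 and 3. Apc was measured in whole counts, 217 to 324 in the control libraries and 49 to 98 with Golph3 shRNA. The mean fell from 40.5 ± 8.69 to 12.2 ± 4.65 CPM (SD, n = 3 libraries each). Its log2 fold change was -1.72 (SE 0.22, 95% interval -2.18 to -1.26, edgeR adjusted p = 1.84e-05), or 3.29-fold lower, the furthest of the 9.

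Axin2, a scaffold of the same complex and a widely used readout of beta-catenin activity, had 3.89, 2.05 and 2.05 CPM in the controls and 3.04, 2.86 and 2.17 CPM with Golph3 shRNA. All Golph3 shRNA values lay inside the control range. These values rest on 13 to 25 counts in the control libraries and 12 to 16 with Golph3 shRNA, where counting alone gives an SD of 23.8% and 26.4% of the mean. The SD between libraries was 40.0% and 17.1% of the mean CPM. The log2 fold change was 0.02 (SE 0.43, edgeR adjusted p = 0.98). Its 95% interval ran from -0.89 to 0.92, so a fall of the size seen in Wnt3 (-0.86) was not excluded at this depth and scatter. The fall of Lgr5, at -1.44, lies outside that interval.

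Ctnnb1, which encodes beta-catenin, had 536, 592 and 558 CPM in the controls and 514, 510 and 513 CPM with Golph3 shRNA. The groups did not overlap, and the Golph3 shRNA values lay close together, at 512 ± 1.72 CPM against 562 ± 28.5 in the controls (SD, n = 3 libraries each). The SD with Golph3 shRNA was 0.34% of the mean, below the 1.91% that counting alone gives, so it is not a measure of precision. The log2 fold change was -0.13 (SE 0.07, 95% interval -0.27 to 0.0045), and it did not pass the test (edgeR adjusted p = 0.13). These are levels of RNA, and beta-catenin is controlled to a large part through degradation of the protein, which was not measured.

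Of the nuclear partners of beta-catenin, Tcf7l2 fell, and Lef1 was higher by a call that 3 of 6 fits with a library left out did not keep; the difference between their fold changes was not tested. Tcf7l2, the main TCF factor of the gut epithelium, had 192, 200 and 195 CPM in the controls and 135, 129 and 141 CPM with Golph3 shRNA. The groups were separate with little scatter. Its log2 fold change was -0.53 (SE 0.07, 95% interval -0.68 to -0.38, edgeR adjusted p = 3.08e-05), or 1.45-fold lower.

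Lef1, a factor of the same family, had 1.25, 2.05 and 1.73 CPM in the controls and 3.24, 3.40 and 6.32 CPM with Golph3 shRNA. Every Golph3 shRNA value was above every control value, and replicate 3 stood well above the other two. The log2 fold change was 1.35 (SE 0.43, 95% interval 0.44 to 2.27, edgeR adjusted p = 0.023), or 2.56-fold higher. The estimates were low, from 8.27 to 15.2 counts in the controls and from 16.1 to 34.6 with Golph3 shRNA, and none of the 6 was whole. Only 2 of the 3 control libraries reached the filter level of 1.67 CPM, and all 3 Golph3 shRNA libraries did. The filter asks for 3 libraries of either group, so the control libraries alone would not have brought Lef1 into the test. The call was lost when control replicate 1 (1.18, adjusted p = 0.096), control replicate 3 (1.37, adjusted p = 0.062) or Golph3 shRNA replicate 3 (0.97, adjusted p = 0.15) was left out of the edgeR fit.

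Cd44, a hyaluronan receptor and target of beta-catenin that marks stem-like cells in gastric cancer, had 342, 326 and 339 CPM in the controls. With Golph3 shRNA it had 215, 214 and 215 CPM. The groups did not overlap, at 336 ± 8.56 and 214 ± 0.74 CPM (SD, n = 3 libraries each). With Golph3 shRNA the SD between libraries was 0.34% of the mean, below the 2.95% that counting alone gives. That SD is therefore not a measure of precision. The log2 fold change was -0.65 (SE 0.06, 95% interval -0.78 to -0.51, edgeR adjusted p = 2.38e-06), or 1.57-fold lower. The estimates are given per gene and not per transcript, so standard and variant CD44 isoforms were not separated.

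**Figure D2:**
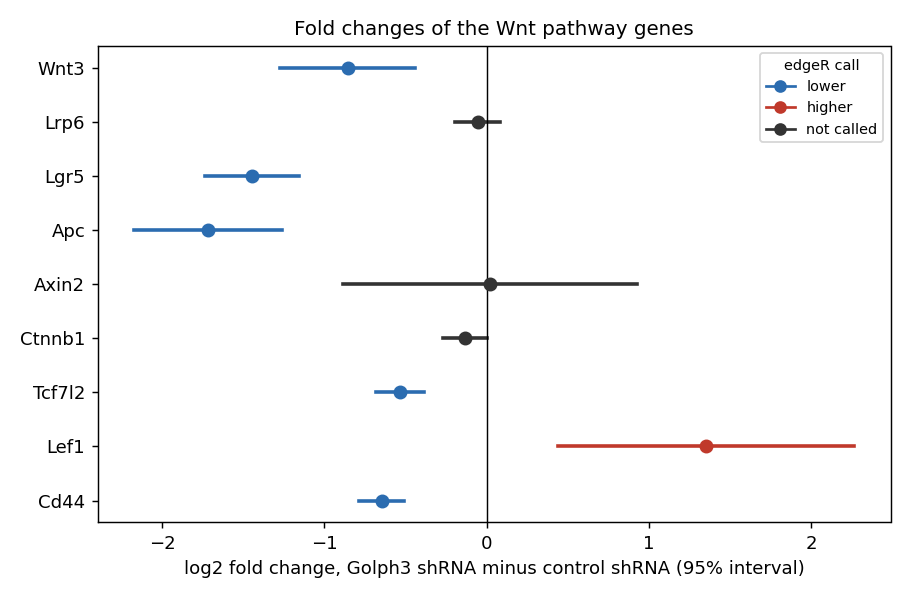
Log2 fold change of each gene (x axis, Golph3 shRNA minus control shRNA) with its 95% interval from the edgeR fit, coloured by call. The intervals of Apc (-2.18 to -1.26) and Lgr5 (-1.73 to -1.16) lie wholly below -1, that of Axin2 is wide around 0, and that of Lef1 (0.44 to 2.27) lies above 0.

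Among all 11400 tested IDs ordered by log2 fold change from the lowest, Apc ranked 66, Lgr5 132, Wnt3 623, Cd44 1175 and Tcf7l2 1611. Lef1 ranked 145 from the highest. Ctnnb1, Lrp6 and Axin2 ranked 4367, 5113 and 5861 from the lowest, in the middle of the order. A fall of at least 2-fold with an adjusted p below 0.05 was seen in 2.91% of the tested IDs and in 2 of the 9 genes, Apc and Lgr5.

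**Figure D3:**
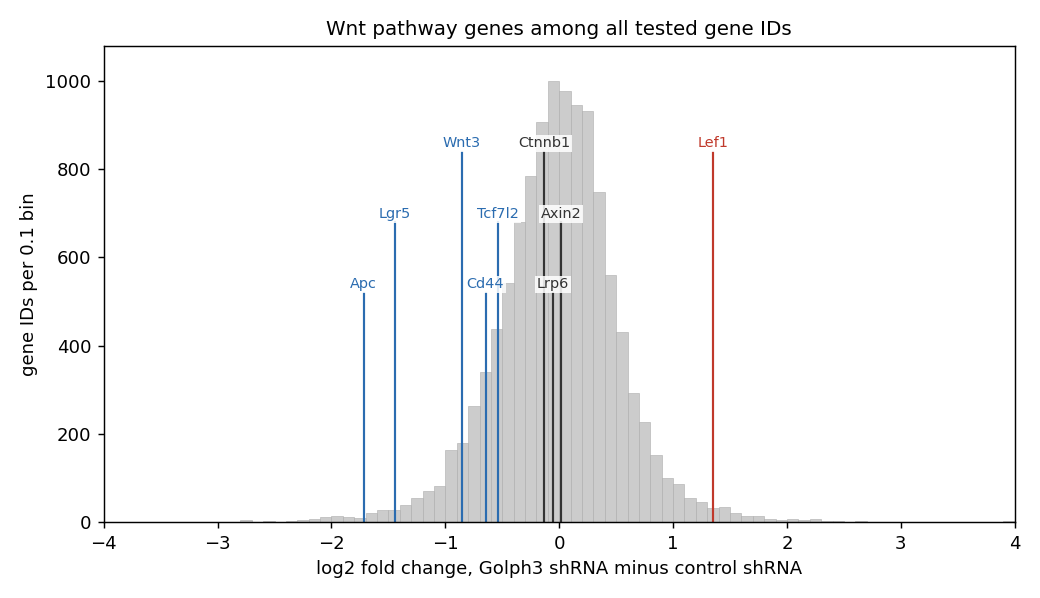
Number of tested gene IDs per 0.1 bin of log2 fold change (grey bars; x axis, Golph3 shRNA minus control shRNA), with the 9 genes marked by lines coloured blue for lower, red for higher and black for not called. Line heights only keep the names apart. Apc and Lgr5 stand in the lower tail and Lef1 in the upper tail, while Ctnnb1, Lrp6 and Axin2 stand at the centre.

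The ratio of 2 genes within a library does not depend on how libraries are scaled. Set against Ctnnb1, Apc fell by 1.64 on the log2 scale, Lgr5 fell by 1.32, Wnt3 fell by 0.71, Cd44 fell by 0.52 and Tcf7l2 fell by 0.40 from the control mean to the Golph3 shRNA mean. For each of these 5 genes the 3 ratios with Golph3 shRNA were below all 3 control ratios. The share of all tested IDs that separate by this ratio was not computed, and by CPM 46.3% did. These genes were picked with the contrast known, so no inference is drawn from the separation. Ctnnb1's own log2 fold change of -0.13, which did not pass the test, enters every ratio. The Lef1 ratio was 1.46 higher on the log2 scale, without overlap. It rests on the same low counts as the Lef1 fold change, so it is not a second result. The ratios of Lrp6 and Axin2 to Ctnnb1 overlapped between the groups, with mean differences of 0.077 and 0.20. The ratio of Cd44 to Ctnnb1 varied least with Golph3 shRNA, with an SD of 0.00089 on the log2 scale. Counting alone gives an SD of 2.95% of the mean for Cd44 and 1.91% for Ctnnb1 in these libraries. The closeness is thus tighter than counting error and is not read as steadiness.

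**Figure D4:**
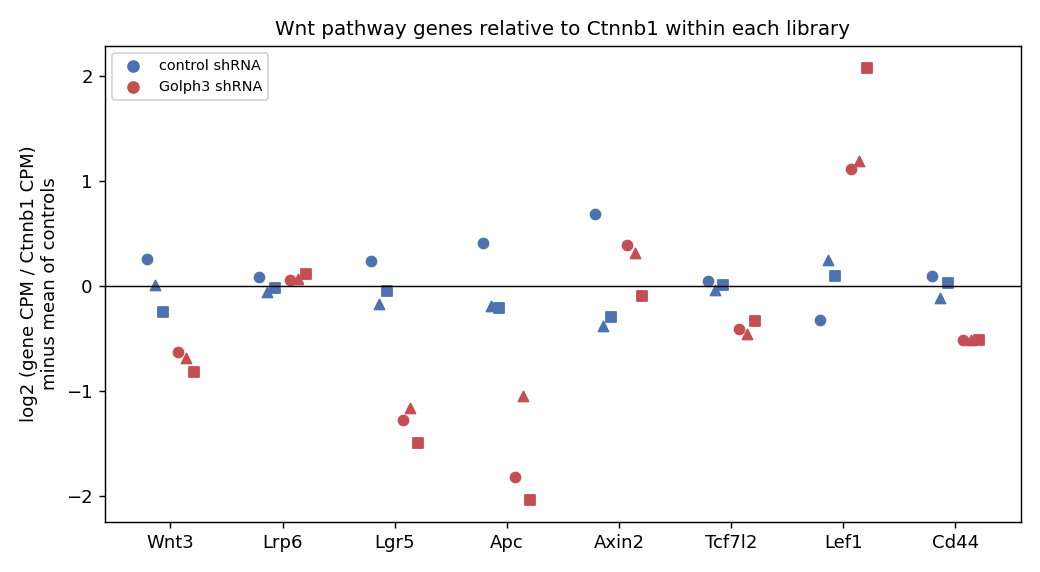
Log2 ratio of each gene's CPM to that of Ctnnb1 in the same library (y axis), less the mean of the 3 control libraries, with controls in blue and Golph3 shRNA in red. Circles, triangles and squares are replicates 1, 2 and 3; Apc, Lgr5, Wnt3, Tcf7l2 and Cd44 lie below the controls, Lef1 above them, and Lrp6 and Axin2 among them.

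Over the 6 libraries, log2 CPM of Wnt3 correlated with that of Lgr5 at a Pearson r of 0.96, with Apc and Cd44 at 0.94, and with Tcf7l2 at 0.92. With Lrp6 it was 0.80 and with Ctnnb1 0.78, neither of which was called, with Axin2 0.15 and with Lef1 -0.90. The 6 points form 2 groups of 3 that share a treatment, so a difference between the groups enters each r. Of the tested IDs with a mean of at least 5 CPM, the 2 most like Wnt3 by the same measure were ENSMUSG00000022770.16 (r = 0.998) and ENSMUSG00000114765.1 (r = 0.998), for which no symbol was available in the tables used. ENSMUSG00000022770.16 had 106 to 117 CPM in the controls and 89.8 to 93.9 CPM with Golph3 shRNA, with a log2 fold change of -0.30 (edgeR adjusted p = 0.0098). ENSMUSG00000114765.1 had 19.5 to 24.8 CPM in the controls and 14.3 to 15.4 CPM with Golph3 shRNA, with a log2 fold change of -0.62 (edgeR adjusted p = 0.0071).

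Some estimates may include reads divided between gene models. Wnt3, Apc, Axin2 and Ctnnb1 had whole estimates (within 1e-06 of a whole number) in all 6 libraries. Lrp6, Tcf7l2, Lef1 and Cd44 had a fractional estimate in each library, and Lgr5 in 5 of the 6. Both kinds include genes that fell and genes that did not pass the test, and Lef1 is among the fractional ones. Dropping the fractional part (rounding down) moved Lef1 from 1.35 to 1.33 on the log2 scale and changed no member's call. Whether reads were divided between gene models, and how that would bear on the folds, was not tested.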

How the data were processed

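RNA sequencing libraries of messenger RNA were made with a stranded kit, per the labels' protocols, from 3 control shRNA and 3 Golph3 shRNA samples. Estimated counts for each gene ID, not all whole, were deposited by the authors in 1 table. The build mm10 is named in the submitters' processing notes, and no aligner, quantifier, annotation, strand setting or filter was found (not given in the sources used here). Estimates were rounded to whole numbers and filtered with filterByExpr (minimum count 10), leaving 11400 of 34866 IDs. The comparison used edgeR 4.0.16 under R 4.3.3 (TMM factors, quasi-likelihood F test, Benjamini-Hochberg over all tested IDs). An SE is the absolute log2 fold change over the root of F, and 95% intervals use the t quantile of the fit's degrees of freedom. Correlations use log2 CPM with a prior count of 2. The edgeR step was tested on simulated counts, and the motif search on short made-up sequences. Alternatives were other scalings, DESeq2 1.42.0, limma-voom (limma 3.58.1), other filters, rounding down, a replicate block and each library left out.

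The members and lists were chosen with earlier results of these data known. All 9 members are named, with the 2 IDs most like Wnt3. Lists of other pathway genes and of cell type markers, given by symbol, were not analysed here, since the IDs could not be paired with symbols. Depth was 4977645 to 7355140 estimated counts per library, and SDs from counting cover counting error only.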

Additional observations from a re-analysis of the deposited data

How the results depend on the processing

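Each gene was refitted under 14 alternatives, of which 6 left out a library. Wnt3, Lgr5, Apc, Tcf7l2 and Cd44 were called lower in all 14. Their log2 fold changes ranged from -0.98 to -0.77 for Wnt3, -1.52 to -1.36 for Lgr5, -2.08 to -1.53 for Apc, -0.57 to -0.51 for Tcf7l2 and -0.67 to -0.63 for Cd44. Ctnnb1 (-0.17 to -0.099) and Lrp6 (-0.078 to -0.040) were called in none. Lef1 was called higher in 11 of 14, with adjusted p = 0.049 in DESeq2; with a library left out it ranged from 0.97 to 1.52, and the call was lost without control replicate 1, control replicate 3 or Golph3 shRNA replicate 3. Axin2 was never called, and its sign turned without a filter on low counts (-0.00058) and with a library left out (-0.15 to 0.38). Over all IDs, 1577 to 1952 were called higher and 1722 to 2222 lower in the alternatives that kept all libraries, and 1425 to 1665 and 1644 to 1929 with a library left out. The median over all IDs stayed within 0.1 of 0 on the log2 scale under every scaling.

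In the fit with a replicate block, 1842 IDs were higher and 2045 lower, no member's call changed, and Lef1 was at 1.32 (edgeR adjusted p = 0.034). Same-numbered samples deviated from their group means with correlations of 0.032 (number 1), 0.090 (number 2) and 0.044 (number 3). All were below a chosen threshold of 0.1, and the labels do not say that equal numbers mark pairs, so the main fit used no block. With 3 libraries per group, these correlations cannot tell whether the samples were paired. Control replicates 2 and 3 correlated best with the same number, and control replicate 1 with Golph3 shRNA replicate 3 (0.037). Axin2 and Lef1 had the fewest counts of the 9 genes, 8.27 to 34.6 a library. For Lef1, counting gives an SD of 29.7% of the mean in the controls and 20.7% with Golph3 shRNA, where the SD between libraries was 24.1% and 40.1%. Results planned for other pathway genes by symbol were not run.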
